A study of Mus musculus with 4 samples.

Results

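TRBJ2 is the second cluster of joining (J) genes of the mouse T cell receptor beta locus, and its members here are the beta chains assigned to TRBJ2-1, TRBJ2-2, TRBJ2-3, TRBJ2-4, TRBJ2-5 or TRBJ2-7. They were chosen by the J gene name of each deposited beta chain, with no threshold. They made up 525 of 713 assembled beta chains, of which 279 were in the p53 KO library and 246 in the WT library. Counted once per clonotype, which is a group of cells that share receptor chains, they stood for 161 of 230 p53 KO and 174 of 240 WT clonotypes. Counted by cells, they were found in 269 of 351 p53 KO and 239 of 326 WT cells that had a beta chain.

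The libraries came from whole tumours of MC38, a mouse colon carcinoma line, in C57BL/6J mice. The p53 KO tumours grew from MC38 cells that lack p53, and the WT tumours from MC38 cells with p53 intact. Both genotypes received anti-PD-1, an antibody against an inhibitory receptor of T cells, so no untreated tumour stands beside them. Each genotype had 1 T cell receptor library, made on the 10x Chromium 5' platform, in which a barcode identifies the cell and a unique molecular identifier (UMI) the RNA molecule that a read came from. The sources used here do not state the number of mice per library or whether the p53 KO line was 1 clone. The knockout was in the tumour cells and cannot be checked in receptor chains. A single library stands for each genotype, so differences lack replication and were not tested. Intervals beside shares are exact 95% Clopper-Pearson limits and cover counting error only.

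A beta chain is joined in the developing T cell from a V gene, a short D segment and a J gene, and the joint forms the third complementarity-determining region (CDR3), the loop that lies over the presented peptide. Enzymes trim the ends of the segments and add untemplated bases before they are joined, so each joint keeps a different length of J sequence. The TRBD1 segment lies upstream of both J clusters and can join to either, whereas TRBD2 lies between them and normally joins only to TRBJ2. Each J cluster is followed by its own constant gene, TRBC1 after TRBJ1 and TRBC2 after TRBJ2.

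The 6 genes lie within 1103 bases of chromosome 6 in GRCm38.p6, the assembly of mm10, in the order of their numbers. TRBJ2-1 spans chr6:41542754-41542803 and starts 577 bases after the end of TRBD2. TRBJ2-2 follows at chr6:41542957-41543007, TRBJ2-3 at chr6:41543223-41543271 and TRBJ2-4 at chr6:41543362-41543410. TRBJ2-5 lies at chr6:41543453-41543501, only 42 bases after TRBJ2-4, and TRBJ2-7 at chr6:41543810-41543856. TRBJ2-6, annotated as a pseudogene at chr6:41543598-41543645, was named in 0 contigs of either library, where only productive chains were listed. Among cells with a productive beta chain, 0 is compatible with shares of at most 0.855% in p53 KO and 0.920% in WT (3 counts of the total). Joints that are not productive were not listed, so these limits say nothing of how often TRBJ2-6 was joined.

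What sets the members apart is the stretch of J sequence that ends the CDR3. The germline ends were read from the deposited chains, as the bases shared by the least trimmed chains of both libraries, and are shown because every length and trimming value rests on them. Capitals mark the bases kept by at least 90% of the clonotypes of that gene over both libraries, and each sequence runs 5' to 3' up to the last codon of the CDR3.
TRBJ2-1: aactatGCTGAGCAGTTCTTC
TRBJ2-2: caaacACCGGGCAGCTCTACTTT
TRBJ2-3: agtgcAGAAACGCTGTATTTT
TRBJ2-4: agtcaaAACACCTTGTACTTT
TRBJ2-5: aaccaaGACACCCAGTACTTT
TRBJ2-7: ctcctatGAACAGTACTTC
TRBJ2-7 brings the shortest end, with 19 bases, and TRBJ2-2 the longest, with 23. The TRBJ2-1 segment reaches 1 base further, to 22, but its outermost base was G in 9 and T in 8 of the chains that reach it and was left undetermined. The weakest accepted bases were base 22 of TRBJ2-2, counted from the CDR3 end, and the outermost base of TRBJ2-3. Each was A in 12 chains and G in 8. The capitals run over 12 bases in TRBJ2-7 and 18 in TRBJ2-2, so the part that nearly every chain kept was also shortest in TRBJ2-7. The last 4 residues were EQFF in 58 of 58 distinct TRBJ2-1 beta chain sequences of both libraries. They were QLYF in 38 of 38 for TRBJ2-2, TQYF in 56 of 56 for TRBJ2-5 and EQYF in 89 of 91 for TRBJ2-7. TRBJ2-3 and TRBJ2-4 share TLYF, found in 36 of 37 and 46 of 46 of their sequences, although their DNA differs.

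TRBJ2 took a similar share of the repertoire in both libraries. It stood for 70.0% of p53 KO clonotypes (161 of 230, interval 63.6 to 75.8) and 72.5% of WT clonotypes (174 of 240, 66.4 to 78.0). By cells, its share was 76.6% in p53 KO (269 of 351, 71.9 to 81.0) and 73.3% in WT (239 of 326, 68.2 to 78.0). The KO and WT intervals overlap in both counts, and the order of the libraries differs between the counts. The remaining chains all carried TRBJ1 genes, in 69 p53 KO and 66 WT clonotypes.

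TRBJ2-7, the member farthest from the D segments, stood for the largest number of clonotypes in both libraries. It held 51 of 230 p53 KO clonotypes (22.2%, 17.0 to 28.1) and 42 of 240 WT clonotypes (17.5%, 12.9 to 22.9). In p53 KO the interval of TRBJ2-7 overlaps only that of TRBJ2-1 among the other members, and in WT it overlaps those of all 5. Along the whole order of levels, no 2 neighbours had intervals that lie apart.

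TRBJ2-1, the member nearest to TRBD2, was the next in p53 KO with 36 clonotypes (15.7%, 11.2 to 21.0), against 25 in WT (10.4%, 6.86 to 15.0). TRBJ2-5 held 25 p53 KO clonotypes (10.9%, 7.16 to 15.6) and 34 WT clonotypes (14.2%, 10.0 to 19.2), which made it the next after TRBJ2-7 in WT. These genes thus change places between the libraries, but their intervals overlap in each. TRBJ2-4 held 21 p53 KO clonotypes (9.13%, 5.74 to 13.6) and 25 WT clonotypes (10.4%, 6.86 to 15.0). TRBJ2-3 held 15 p53 KO clonotypes (6.52%, 3.70 to 10.5) and 24 WT clonotypes (10.0%, 6.51 to 14.5). TRBJ2-2 was the least used member in p53 KO, with 13 clonotypes (5.65%, 3.04 to 9.47), and had 24 in WT (10.0%, 6.51 to 14.5). The p53 KO to WT ratio of clonotype shares ran from 0.565 for TRBJ2-2 to 1.50 for TRBJ2-1, and the KO and WT intervals overlapped for all 6 genes.

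Counting cells in place of clonotypes changed the order, since large clones then weigh more. TRBJ2-1 was found in 81 of 351 p53 KO cells (23.1%, 18.8 to 27.8) and 33 of 326 WT cells (10.1%, 7.07 to 13.9). With the large clones included, it is the only member whose KO and WT intervals lie apart. Cells of 1 clone share 1 joining event, however, so the interval by cells is too narrow for the repertoire. Intervals by clonotypes can be too narrow as well, since some beta chains stood under several identifiers. These were 10 TRBJ2 chains in 24 p53 KO clonotypes and 7 in 17 WT clonotypes. Without the 3 beta chains found in 10 or more cells each, all of them in p53 KO, the share of TRBJ2-1 was 14.0% of the remaining 279 p53 KO cells (10.1 to 18.6), against the same 10.1% in WT. TRBJ2-2 was found in 42 p53 KO cells (12.0%, 8.76 to 15.8) and 46 WT cells (14.1%, 10.5 to 18.4). Without those chains its p53 KO share was 4.30% (2.24 to 7.39), an interval that lies apart from that of WT. The KO and WT intervals of TRBJ2-1 then overlap. Without the 3 large beta chains TRBJ2-7 led in p53 KO cells too, at 23.3%. With them it had 18.5% (65 cells, 14.6 to 23.0), against 16.3% in WT (53 cells, 12.4 to 20.7).

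TRBJ2-3 was found in 19 p53 KO cells (5.41%, 3.29 to 8.32) and 36 WT cells (11.0%, 7.86 to 15.0). TRBJ2-4 had 24 p53 KO cells (6.84%, 4.43 to 10.0) and 29 WT cells (8.90%, 6.04 to 12.5). TRBJ2-5 had 38 p53 KO cells (10.8%, 7.78 to 14.6) and 42 WT cells (12.9%, 9.45 to 17.0). All 3 of these shares were lower in p53 KO, with overlapping intervals. By position, the 3 genes nearest to TRBD2 held 64 of 161 TRBJ2 clonotypes in p53 KO (39.8%) and 73 of 174 in WT (42.0%). By cells the same genes held 142 of 269 TRBJ2 cells in p53 KO (52.8%) and 115 of 239 in WT (48.1%), so the order of the libraries differs between the counts.

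**Figure D1:**
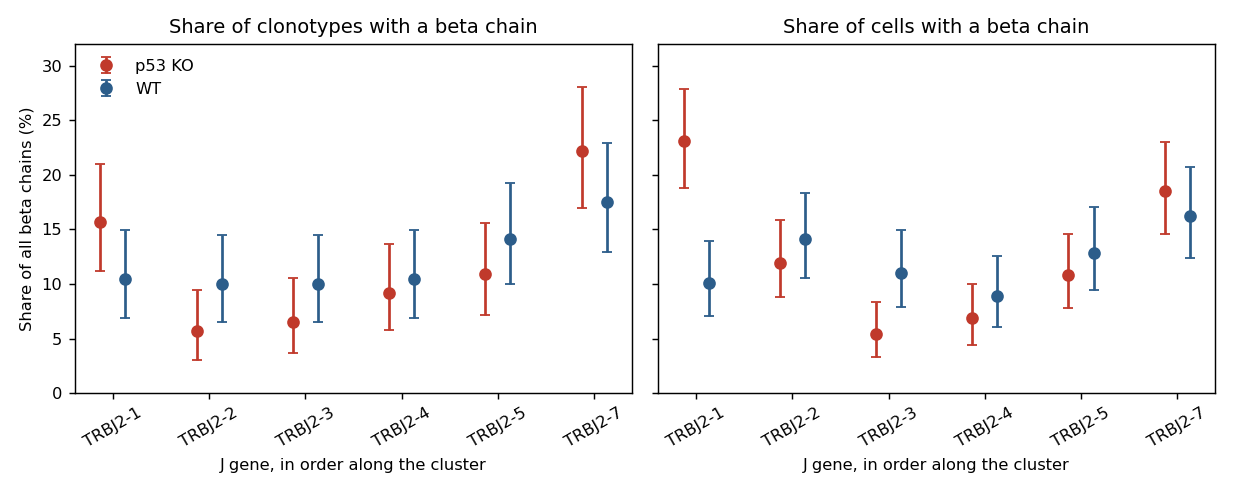
Share of all beta chains, in percent, carried by each TRBJ2 gene, by clonotypes in one panel and by cells in the other, with genes in their order on chromosome 6, p53 KO left of WT, and bars for exact 95% intervals. TRBJ2-7 is highest by clonotypes in both libraries (22.2% in p53 KO, 17.5% in WT), and TRBJ2-1 by cells is the only pair of intervals that lie apart (23.1% in p53 KO, 10.1% in WT).

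The constant gene followed the cluster. TRBC2 was assigned to 161 of 161 TRBJ2 clonotypes in p53 KO and 173 of 174 in WT, with no constant gene named for the last one, and TRBC1 to none. All TRBJ1 clonotypes, 69 in p53 KO and 66 in WT, carried TRBC1. No D segment was named for most TRBJ2 clonotypes, 128 in p53 KO and 131 in WT. TRBD1 was named in 16 and TRBD2 in 17 p53 KO clonotypes, and TRBD1 in 24 and TRBD2 in 19 WT clonotypes. In TRBJ1 clonotypes TRBD1 was named in 18 in p53 KO and 17 in WT, and TRBD2 in 0 in both.

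TRBJ2 genes were joined to many V genes. The p53 KO TRBJ2 clonotypes used 22 V gene names in 80 V and J pairs, and the WT ones 21 V gene names in 83 pairs, so most pairs rest on a few clonotypes and none was called. TRBV12-2+TRBV13-2, a joint name that the deposited files use beside TRBV12-2 and TRBV13-2, was the most frequent partner of TRBJ2 in both libraries. It held 18 p53 KO (11.2%) and 22 WT TRBJ2 clonotypes (12.6%), beside 6 of 69 p53 KO and 8 of 66 WT clonotypes of TRBJ1. TRBV3 held 15 p53 KO (9.32%) and 20 WT clonotypes (11.5%), beside 5 of 69 and 11 of 66 of TRBJ1. TRBV13-1 held 15 p53 KO (9.32%) and 14 WT clonotypes (8.05%), beside 5 of 69 and 6 of 66 of TRBJ1. TRBV1 held 10 p53 KO (6.21%) and 14 WT clonotypes (8.05%), beside 5 of 69 and 10 of 66 of TRBJ1. In WT each of TRBV3, TRBV13-1 and TRBV1 had a higher share in TRBJ1 than in TRBJ2, with overlapping intervals. In p53 KO this held for TRBV1 only.

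The leading V partner varied over the members and between the libraries, although some members shared one. TRBJ2-7 was joined to 20 V gene names in p53 KO, led by TRBV1 with 6 of 51 clonotypes, and to 16 in WT, led by TRBV19 with 7 of 42. TRBJ2-5 was led by TRBV3 in p53 KO, with 5 of 25 clonotypes, and by TRBV12-2+TRBV13-2 in WT, with 8 of 34. TRBJ2-1 was led by TRBV13-1 in p53 KO, with 5 of 36, and by TRBV3 in WT, with 5 of 25. With TRBV12-2+TRBV13-2 kept apart from TRBV12-2 and TRBV13-2, none of the 6 members had the same single leading V gene in both libraries. Leaders depend on that split. In TRBJ2-1 of p53 KO the joint name had 4 clonotypes and TRBV13-2 had 2, beside 5 for TRBV13-1. TRBJ2-3 was led by TRBV12-2+TRBV13-2 in p53 KO, with 3 of 15, and by TRBV15 in WT, with 5 of 24. That WT lead counts identifiers, since 1 TRBV15 beta chain stood under 3 of them, and TRBV1 had 4 clonotypes there. TRBJ2-4 was led by TRBV13-1 in p53 KO, with 4 of 21, and by TRBV5 in WT, with 4 of 25. In TRBJ2-2, TRBV12-2+TRBV13-2, TRBV26 and TRBV3 had 2 clonotypes each of 13 in p53 KO, and TRBV1 and TRBV3 had 4 each of 24 in WT. TRBV3 was thus among the tied leaders of TRBJ2-2 in both libraries. With counts of 2 to 8 behind each leader, the leaders cannot be told from their neighbours at this depth.

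**Figure D2:**
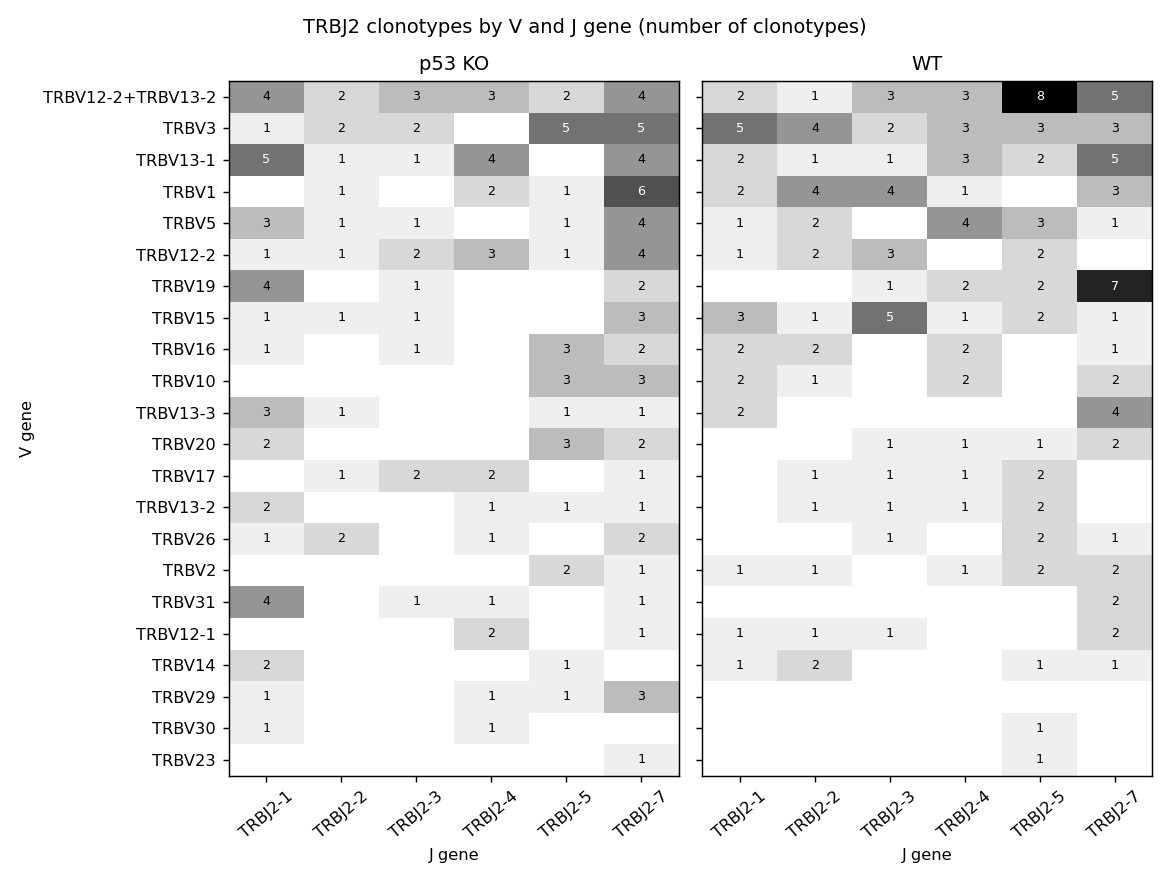
Number of clonotypes for each V gene (down the page) and TRBJ2 gene (across), p53 KO in the left panel and WT in the right, with the count as colour and number. Most pairs hold few clonotypes, and the highest is TRBV12-2+TRBV13-2 with TRBJ2-5 in WT, at 8.

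CDR3 length, counted in amino acids from the first cysteine to the last phenylalanine, spread more widely over the members than between the libraries. TRBJ2 clonotypes had a mean length of 14.1 ± 1.39 residues in p53 KO (SD over 161 clonotypes, range 9 to 18) and 13.97 ± 1.59 in WT (SD over 174, range 10 to 18). TRBJ2-2 had the longest loops, 14.8 ± 1.54 residues in p53 KO and 15.2 ± 1.50 in WT. TRBJ2-7 had the shortest, 13.5 ± 1.54 in p53 KO and 13.2 ± 1.67 in WT. The members at both ends of this order are those with the longest and the shortest germline end.

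The 4 other members lay between. Mean lengths were 14.4 ± 1.22 in p53 KO and 14.3 ± 1.07 in WT for TRBJ2-1, and 14.4 ± 0.737 in p53 KO and 14.1 ± 1.47 in WT for TRBJ2-3. TRBJ2-4 averaged 14.7 ± 1.43 in p53 KO and 13.8 ± 1.58 in WT, the largest difference between libraries of any member. TRBJ2-5 averaged 14.0 ± 1.06 in p53 KO and 13.9 ± 1.43 in WT. TRBJ1 clonotypes averaged 14.0 ± 1.33 residues in p53 KO and 13.7 ± 1.26 in WT.

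**Figure D3:**
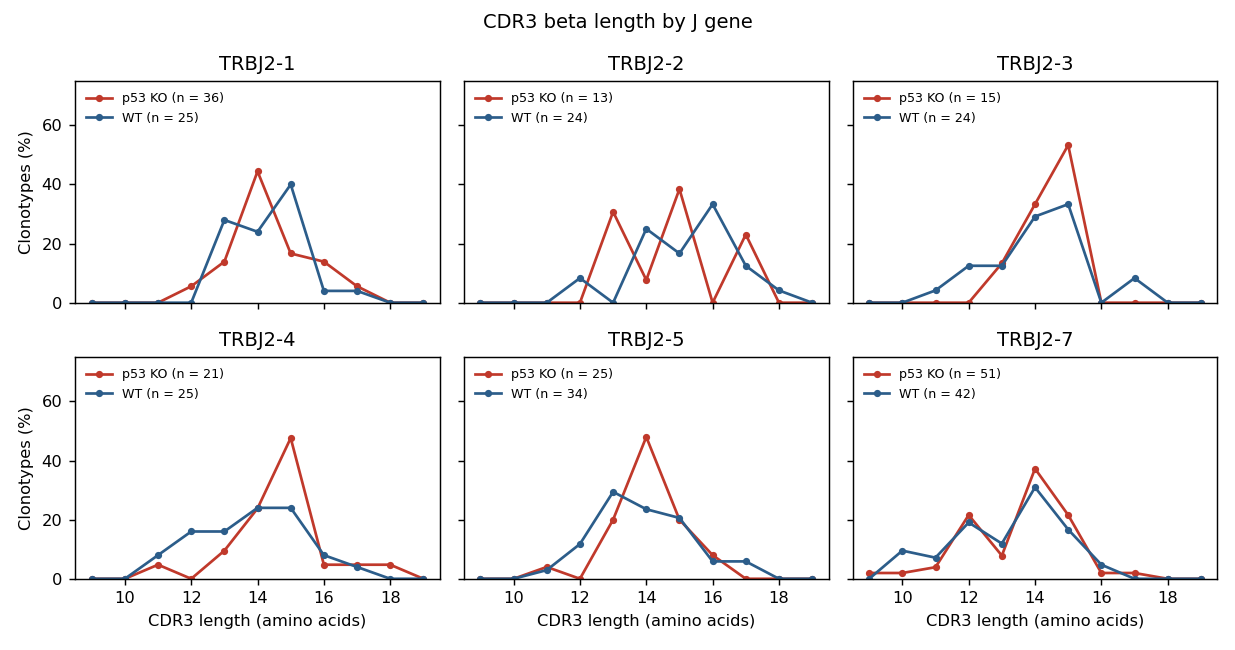
Percent of clonotypes (vertical axis) at each CDR3 length in amino acids (horizontal axis), 1 panel per TRBJ2 gene, with p53 KO and WT as separate lines and the number of clonotypes in each legend. The lines of TRBJ2-2 lie farthest to the right (means 14.8 residues in p53 KO and 15.2 in WT) and those of TRBJ2-7 farthest to the left (13.5 in p53 KO and 13.2 in WT).

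The members with the longest and the shortest loops were also those that kept most and fewest J bases. These bases are part of the loop and cannot exceed the germline end, so the orders are not independent. The J bases kept were counted as the longest run at the 3' end of the CDR3 that matched the germline end, which also counts added bases that match by accident and is an upper value. TRBJ2 clonotypes kept 17.9 ± 2.66 J bases in p53 KO and 18.0 ± 2.85 in WT (SD over clonotypes). TRBJ2-2 kept most in both libraries, 19.6 in p53 KO and 21.1 in WT, and TRBJ2-7 fewest, 16.0 in p53 KO and 15.4 in WT. The rest of the CDR3, from V, D and added bases, had similar lengths over the members, with means of 24.0 to 24.7 bases in p53 KO and 23.3 to 24.5 in WT. In whole residues, TRBJ2-2 supplied 6.23 in p53 KO and 6.67 in WT, TRBJ2-4 supplied 6.24 in p53 KO and 5.80 in WT, and TRBJ2-7 supplied 5.12 in p53 KO and 4.93 in WT.

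Trimming is the number of germline bases that were lost, of 21 determined bases for TRBJ2-1. TRBJ2 clonotypes lost 2.63 ± 2.33 bases in p53 KO and 2.80 ± 2.33 in WT, beside 2.39 in p53 KO and 2.74 in WT for TRBJ1. By member, means ran from 1.67 (TRBJ2-4) to 3.38 (TRBJ2-2) in p53 KO and from 1.92 (TRBJ2-2) to 3.57 (TRBJ2-7) in WT. The order of the members is uncertain: TRBJ2-5 was close to TRBJ2-2 in p53 KO, with 3.36, and by cells it lost more, 4.24 against 3.12. Under the planned reading of the germline ends (the commonest base at each position) TRBJ2-2 was at neither end of the order. No determined base was lost in 47 of 161 p53 KO clonotypes (29.2%, 22.3 to 36.9) and 39 of 174 WT clonotypes (22.4%, 16.5 to 29.3). These include 13 p53 KO and 7 WT clonotypes of TRBJ2-1, whose undetermined base 22 was not scored. No base stood there in more than 9 of the 20 distinct chains that reach it. The counts of untrimmed clonotypes are thus upper values, and the losses of TRBJ2-1 lower ones. At least 6 bases were lost in 23 p53 KO (14.3%) and 28 WT clonotypes (16.1%).

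The least and the most trimmed chains show what this means for the loop. In these sequences capitals mark the J bases kept, and the lower-case bases come from V, D and untemplated addition. For TRBJ2-7, the longest and the shortest J parts were these.
p53 KO clonotype 13, TRBV17 with TRBJ2-7, 3 cells: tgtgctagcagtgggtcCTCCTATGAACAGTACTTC
WT clonotype 91, TRBV2 with TRBJ2-7, 1 cell: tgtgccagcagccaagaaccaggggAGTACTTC
The first keeps all 19 bases and reads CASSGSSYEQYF. The other keeps 8, loses 11 and reads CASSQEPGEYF, so that only its last 2 residues are fully J-encoded. For TRBJ2-3, the pair was as follows.
p53 KO clonotype 39, TRBV12-2 with TRBJ2-3, 2 cells: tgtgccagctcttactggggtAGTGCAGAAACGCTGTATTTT
p53 KO clonotype 14, TRBV5 with TRBJ2-3, 3 cells: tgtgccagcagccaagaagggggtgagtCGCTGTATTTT
The first keeps all 21 bases, and the other keeps 11 and has the end SLYF in place of TLYF. The fewest J bases kept were 14 for TRBJ2-1, 16 for TRBJ2-2, 13 for TRBJ2-4 and 13 for TRBJ2-5. TRBJ2-3 and TRBJ2-7 were thus the members with the deepest single trimming, of 10 and 11 bases.

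Some members lost J sequence in steps. For TRBJ2-7, the 15 bases tatgaacagtacttc at its 3' end were kept by 40 of 51 p53 KO (78.4%) and 33 of 42 WT clonotypes (78.6%). The next base outward was kept by 27 p53 KO (52.9%) and 19 WT clonotypes (45.2%). This was the largest step between neighbouring positions of TRBJ2-7 in both libraries. TRBJ2-2 also had its largest step at 1 place in both libraries, after base 21. The next base was kept by 1 of 13 p53 KO clonotypes (7.69%, down 30.8 points) and 10 of 24 WT clonotypes (41.7%, down 29.2 points). That base was read as A from 12 chains against 8 with G, so the step rests on a weakly supported base. In the other 4 members the largest steps were of 16.0 to 33.3 points. They fell at different places in the libraries for TRBJ2-3 and TRBJ2-5. For TRBJ2-1 the largest p53 KO step, from base 19 to 20, was tied as largest in WT with that from base 15 to 16. For TRBJ2-4 the steps from base 18 to 19 and from base 20 to 21 were among the tied largest steps in both libraries.

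**Figure D4:**
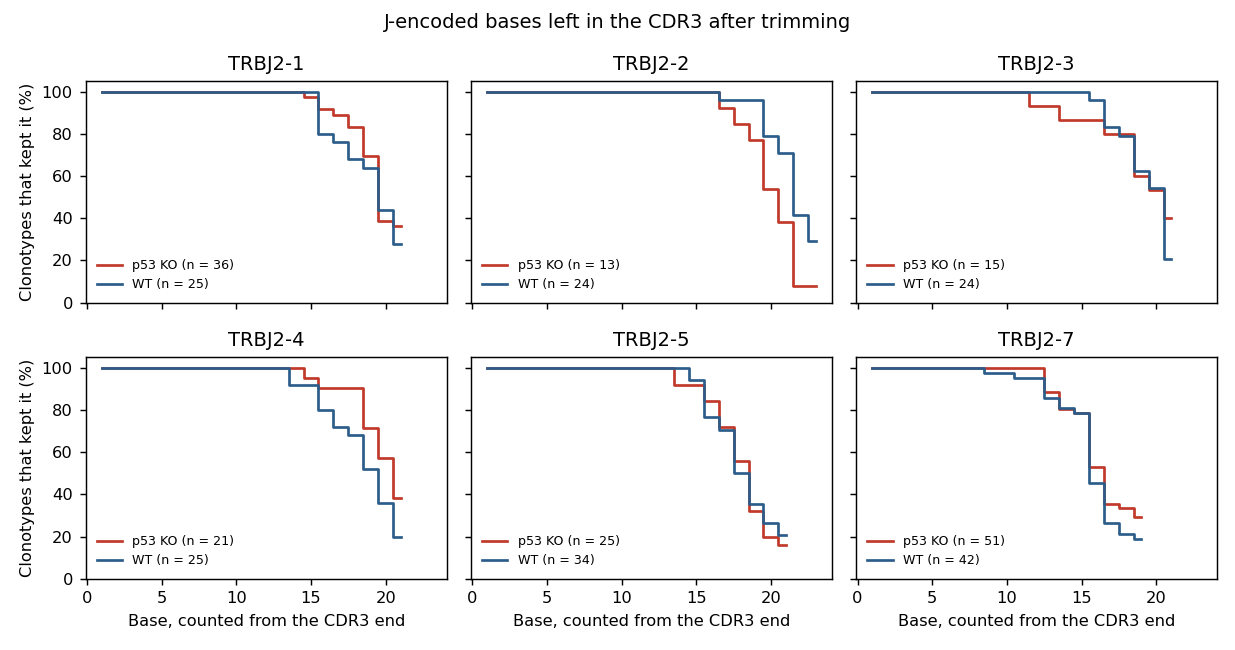
Percent of clonotypes of each TRBJ2 gene whose CDR3 kept the germline J sequence at least to a given distance, in bases, from the 3' end of the CDR3, 1 panel per gene, p53 KO and WT as separate lines. Both lines of TRBJ2-7 drop between 15 and 16 bases, to 52.9% in p53 KO and 45.2% in WT.

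Large clones are the T cells that multiplied in the animal, and cells of 1 clone share their receptor. Clonotypes found in 2 or more cells, called expanded here, made up 27 of 161 p53 KO TRBJ2 clonotypes (16.8%, 11.4 to 23.5) and 32 of 174 WT ones (18.4%, 12.9 to 25.0). In TRBJ1 they were 7 of 69 p53 KO clonotypes (10.1%) and 12 of 66 WT clonotypes (18.2%). TRBJ2 thus held 27 of the 34 expanded clonotypes of p53 KO (79.4%, 62.1 to 91.3) and 32 of the 44 of WT (72.7%, 57.2 to 85.0). Among clonotypes of 5 or more cells, TRBJ2 held 6 of 7 in p53 KO (interval 42.1 to 99.6%) and 5 of 6 in WT (35.9 to 99.6%). All these intervals hold the share of TRBJ2 among all clonotypes, 70.0% in p53 KO and 72.5% in WT. All 4 clonotypes of 10 or more cells were TRBJ2 chains of p53 KO, with 70 cells, and WT had 0. They carry only 3 distinct beta chains, and the interval, 39.8 to 100%, also holds the 70.0%.

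The members differed in how their cells were spread over clones. The intervals of the share of clonotypes that were expanded overlap between all members and between the libraries. TRBJ2-1 had 10 expanded clonotypes of 36 in p53 KO and 6 of 25 in WT, and 67.9% of the cells of its p53 KO clonotypes (55 of 81) and 45.7% of those of its WT clonotypes (16 of 35) were in them. These cells are counted by the chain that stands for their clonotype, and so differ slightly from the counts by cell. TRBJ2-2 had 1 expanded clonotype of 13 in p53 KO (interval 0.195 to 36.0%) and 7 of 24 in WT (12.6 to 51.1%). That 1 clonotype held 71.4% of the p53 KO cells of TRBJ2-2 (30 of 42), against 62.2% in expanded clonotypes in WT (28 of 45). The p53 KO cells of TRBJ2-2 were thus mostly 1 large clone and the WT cells several small ones. TRBJ2-3 had 3 of 15 in p53 KO and 6 of 24 in WT, TRBJ2-4 had 1 of 21 in p53 KO and 3 of 25 in WT, and TRBJ2-5 had 5 of 25 in p53 KO and 5 of 34 in WT. In TRBJ2-7, 7 of 51 p53 KO clonotypes (13.7%, 5.70 to 26.3) and 5 of 42 WT clonotypes were expanded (11.9%, 3.98 to 25.6), with intervals that hold the shares of the whole cluster, and its largest had 5 cells in each library.

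The largest TRBJ2 clones of p53 KO are shown with their J part in capitals, because they set the shares by cells.
p53 KO clonotype 1, TRBV1 with TRBJ2-2, 30 cells: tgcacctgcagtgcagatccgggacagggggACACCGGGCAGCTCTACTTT
p53 KO clonotypes 2 and 3, TRBV19 with TRBJ2-1, 16 and 14 cells: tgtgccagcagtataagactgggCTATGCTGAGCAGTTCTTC
p53 KO clonotype 4, TRBV5 with TRBJ2-1, 10 cells: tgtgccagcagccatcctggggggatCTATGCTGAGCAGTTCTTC
p53 KO clonotype 6, TRBV2 with TRBJ2-5, 8 cells: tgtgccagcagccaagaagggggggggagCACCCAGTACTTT
p53 KO clonotype 8, TRBV26 with TRBJ2-7, 5 cells: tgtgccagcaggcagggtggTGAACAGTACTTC
None of these kept its whole J end. Clonotypes 1, 2, 3 and 4 lost 2 or 3 bases, whereas clonotype 6 kept 13 bases, and no TRBJ2-5 clonotype kept fewer, and clonotype 8 kept 13 of 19. Clonotypes 2 and 3 carry the same beta chain, which was found in 31 cells over 3 clonotype identifiers, 14 of them without an alpha chain. Whether these cells are 1 clone was not tested.

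The WT TRBJ2 clones were smaller, and the ones of 5 or more cells used TRBJ2-2, TRBJ2-3 and TRBJ2-7. The largest WT clonotype of all, with 7 cells, used TRBJ1-1.
WT clonotype 4, TRBV12-2+TRBV13-2 with TRBJ2-2, 6 cells: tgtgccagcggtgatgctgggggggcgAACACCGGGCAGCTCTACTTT
WT clonotype 6, TRBV17 with TRBJ2-2, 6 cells: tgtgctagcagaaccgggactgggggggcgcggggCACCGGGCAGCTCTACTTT
WT clonotype 11, TRBV3 with TRBJ2-2, 5 cells: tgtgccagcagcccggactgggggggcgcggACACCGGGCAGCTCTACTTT
WT clonotype 8, TRBV15 with TRBJ2-3, 5 cells: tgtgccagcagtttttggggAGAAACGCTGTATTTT
WT clonotype 9, TRBV19 with TRBJ2-7, 5 cells: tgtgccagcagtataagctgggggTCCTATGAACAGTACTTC
The beta chain of clonotype 8 was found in 7 cells over 3 clonotype identifiers, more cells than any other TRBJ2 beta chain of WT. The 3 TRBJ2-2 clones have loops of 16, 18 and 17 residues, longer than the WT mean of TRBJ2, and the TRBJ2-3 clone has 12. Among the other members, the largest WT clonotypes had 4 cells in TRBJ2-1, 4 in TRBJ2-5 and 3 in TRBJ2-4, and the largest p53 KO ones had 4 cells in TRBJ2-4 and 3 in TRBJ2-3.

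**Figure D5:**
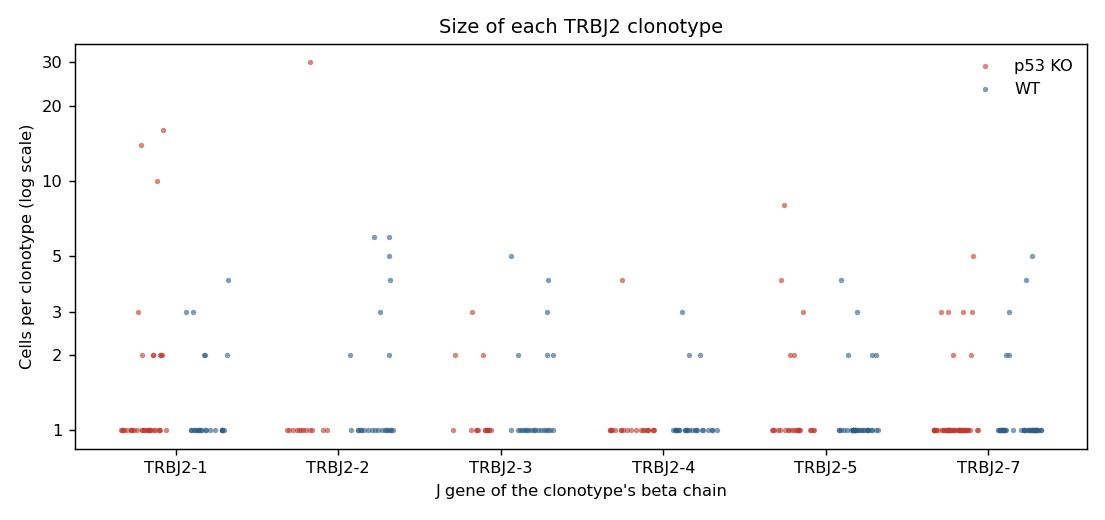
Cells per clonotype, on a log axis, for each TRBJ2 gene, 1 point per clonotype, p53 KO left of WT. The points of 10 or more cells are all p53 KO clonotypes of TRBJ2-1 and TRBJ2-2, and the largest WT TRBJ2 clonotypes have 6 cells.

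Beta chains were also seen under more than 1 clonotype identifier. Of 156 distinct TRBJ2 beta chains (V gene, J gene and CDR3 nucleotides) of p53 KO, 10 stood in several clonotypes, in 24 clonotypes and 68 cells in all. In WT it was 7 of 170, in 17 clonotypes and 22 cells. A TRA chain was found in 196 of 269 TRBJ2 cells of p53 KO (72.9%) and 206 of 239 of WT (86.2%), and cells that lack one can be given an identifier of their own. The part of missing alpha chains in these counts was not tested. The median was 6 UMIs per TRBJ2 contig in p53 KO and 4 in WT.

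The libraries shared 0 cell barcodes and 0 TRBJ2 beta chains by nucleotides. A single TRBJ2 beta chain was shared by amino acids, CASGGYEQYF, made from TRBV12-2+TRBV13-2 and TRBJ2-7. The nucleotides differ between the libraries, with J bases in capitals.
p53 KO, 1 cell: tgtgccagcggtgggTATGAACAGTACTTC
WT, 4 cells: tgtgccagcggtggtTATGAACAGTACTTC
Both chains keep the same 15 J bases and have only 15 bases ahead of them. The loop, with 10 residues, is shorter than the mean of TRBJ2-7 in both libraries.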

How the data were processed

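For each of the 2 T cell receptor libraries the authors deposited filtered contigs with V, D, J and C gene, CDR3, clonotype and cell barcode, and whole-number counts of reads and UMIs per contig, per the file headers. Cell Ranger 6.1.1 and mm10 are named in the submitters' processing notes. The libraries held 709 contigs of 392 cells and 4138 UMIs in p53 KO, and 733 contigs of 408 cells and 4280 UMIs in WT. The paired gene expression libraries were not used here. Each cell and clonotype was represented by its beta contig with most UMIs, over all cells with a beta contig. No doublet caller was run.

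Members and lists were chosen with earlier results of these data known. Named were all 6 genes, their leading V genes and those of TRBJ2, the largest clonotypes of each gene and library with 3 or more cells, and the clonotypes with most and fewest J bases. Those of 5 or more cells were added after seeing the data. All 6 genes matched the RefSeq annotation of GRCm38.p6, which gave coordinates and segment lengths.

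No genome sequence was at hand. The germline end of each J gene was read outward from the CDR3 end, taking at each position the base leading among chains that match all bases nearer that end, if 1.5 times the next. The plan had been the commonest base over all clonotypes. It gave G at the outermost base of all 6 genes, so the chained reading replaced it after the data were seen. The reading of germline ends and the count of J bases kept were checked on simulated chains with known answers. Work was done in Python 3.11.15 with scipy 1.17.1 (intervals), pandas 2.3.3 and numpy 2.4.6 (counts) and matplotlib 3.10.9 (figures).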

Additional observations from a re-analysis of the deposited data

Results flagged for a closer look

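Some cells held a second, less abundant TRB contig, which the counts of cells and clonotypes do not use. In p53 KO, 10 of 22 such contigs were TRBJ2 chains, with a median of 3.5 UMIs (2 to 12), and 7 cells held a pair of TRBJ2 chains. In WT, 7 of 14 were TRBJ2 chains, with a median of 4 UMIs (2 to 6), and 5 cells held such a pair. No library lacks T cells, so there is no control level to set these counts against.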

How the results depend on the processing

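Of 34 alternatives for the shares of TRBJ2, all but 1 stayed within the interval of the value reported. The exception left out beta chains found in 10 or more cells, chosen after seeing the data, where TRBJ2 held 70.6% of p53 KO cells. Over all alternatives the share of clonotypes ran from 67.5 to 72.5% in p53 KO and 70.3 to 73.3% in WT, and that of cells from 70.6 to 79.1% in p53 KO and 70.9 to 74.9% in WT. The share of expanded clonotypes ran from 78.0 to 86.2% in p53 KO and from 71.1 to 85.0% in WT. Its WT maximum, with 3 cells required, lay just inside the upper limit of the wide interval reported. The p53 KO minus WT difference in cells, 3.33 points, was -2.70 without the large beta chains, and without the largest clonotype of each library the shares were 74.5% in p53 KO and 74.9% in WT. In clonotypes it was -2.50 points, and 2.24 with 3 or more UMIs per contig. In expanded clonotypes it was 6.68 points, and -1.67 where 3 cells were required. The plain commonest base at each germline position gave means of 17.6 J bases kept in p53 KO and 17.8 in WT, the lowest of any alternative, and the highest were 18.0 in p53 KO and 18.1 in WT. Mean CDR3 lengths ran from 14.1 to 14.4 residues in p53 KO and 13.9 to 14.0 in WT. Of 132 alternatives for single genes, 4 left the interval reported, all by cells in p53 KO: TRBJ2-1 at 14.0%, TRBJ2-2 at 4.30% and TRBJ2-7 at 23.3% without large beta chains, and TRBJ2-2 at 3.74% without the largest clonotype. TRBJ2-5 by cells turned higher in p53 KO without large beta chains, by 0.737 points. No paired analysis was possible because each genotype has 1 library. The number of clonotypes per gene, 13 to 51, limits every share and every V partner.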

Other observations

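TRBJ2-7 loops of 13 residues were fewer than their neighbours in both libraries. In p53 KO, 11 clonotypes had 12 residues, 4 had 13 and 19 had 14, and in WT 8 had 12, 5 had 13 and 13 had 14. The pattern was noticed after the values were seen and has no test. It is shown by both libraries, each on few clonotypes.

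TRBV19, which encodes the V part of the largest TRBJ2-1 clone of p53 KO and of the largest TRBJ2-7 clone of WT, was also found with TRBJ1. In p53 KO it was found in 7 of 161 TRBJ2 and 8 of 69 TRBJ1 clonotypes, and in WT in 12 of 174 TRBJ2 and 0 of 66 TRBJ1 clonotypes. The exact intervals of its TRBJ1 shares overlap, at 5.14 to 21.6% in p53 KO and 0 to 5.44% in WT. TRBV15, the leading partner of TRBJ2-3 in WT by clonotype identifiers, was found in 6 p53 KO and 13 WT clonotypes of TRBJ2, and in 0 p53 KO and 1 WT clonotype of TRBJ1.

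Within WT, 1 amino acid chain of TRBV12-2+TRBV13-2 and TRBJ2-5, of 14 residues, was encoded by 2 nucleotide sequences in 1 cell each. The capitals mark the J bases, which cover 16 bases in the first chain and 15 in the other.
WT, 1 cell: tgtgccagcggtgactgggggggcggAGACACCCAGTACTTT
WT, 1 cell: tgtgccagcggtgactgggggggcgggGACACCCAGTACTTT
The contigs rest on 1 and 2 UMIs, and the sequences differ in a single base; whether they are separate joints was not tested.

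Expanded TRBJ2 clonotypes had lost more J bases on average than those of 1 cell. The means were 3.15 ± 2.89 bases over 27 expanded against 2.52 ± 2.20 over 134 clonotypes of 1 cell in p53 KO, and 3.47 ± 2.11 over 32 against 2.65 ± 2.35 over 142 in WT (SD). The differences were not tested. Their mean CDR3 lengths were 14.1 and 14.1 residues in p53 KO and 14.1 and 13.9 in WT.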
